A study of Saccharomyces cerevisiae with 6 samples.

Results

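Sac3 clusters without a Thp1 cluster are stretches of the yeast genome where binding of Sac3-FLAG was called by ChIP-chip and binding of Thp1-FLAG was not. They were chosen from the positions of the clusters, as every cluster of the Sac3 list that has 0 bp in common with every cluster of the Thp1 list. There were 357 such clusters among 2282 Sac3 clusters. This number and the distance to Thp1 were fixed by the choice and are given as a description, with no test.

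Sac3 and Thp1 are subunits of TREX-2, a complex that links transcribed genes and their messenger RNA to the nuclear pore. The other subunits assemble on Sac3, and Thp1 together with Sac3 makes up the part that contacts RNA. Rrm3 is a DNA helicase that helps the replication fork through obstacles such as tightly bound proteins, and its presence on DNA is used to find places where forks slow down.

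The study profiled FLAG-tagged proteins in asynchronous Saccharomyces cerevisiae cultures in rich medium (YPD), on tiling arrays whose probes follow each other along the chromosomes. Sac3-FLAG cells carried SAC3::FLAG::KanMX and Thp1-FLAG cells THP1::FLAG::KanMX, both with ura3-1, and each was read on 1 array. Rrm3-FLAG cells lacked Sac3 (sac3::KanMX) and also carried bar1Δ and the insertion URA3/GPD-Tk(7x) at ura3, and 2 repetitions were taken to be combined in 1 list. All 3 strains were MATa with ade2-1, can1-100, his3-11,15 and a leu2 allele. The sample labels also give trp1-1 for all 3, whereas the strain list of the study gives it for the Sac3-FLAG and Thp1-FLAG strains and not for the parent of the Rrm3-FLAG strain. The samples are 6 in all, and Rrm3 in thp1Δ cells was not analysed here. The authors expressed binding as the ratio IP/SUP, where IP is the immunoprecipitated DNA, and the samples hold no strain without a FLAG tag.

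Each cluster is listed by its chromosome and its limits, without its height. A Sac3 cluster therefore has no Thp1 cluster whenever Thp1 stayed short of the threshold for calling, and a weak Thp1 signal at these places cannot be seen in the lists. The paper reports such Thp1 peaks, short of significance, at the centromeres where it found Sac3. With 1 array per protein there was no spread between replicates, so no comparison could be tested against it. The 95% Wilson interval beside a share covers nothing but counting error, and clusters close to each other are not independent. Positions are those of the lists, counted from 1. The genome build is not given in the sources used here. For this reason the clusters were not assigned to genes, centromeres or other features, and their sequences are not shown.

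The 357 clusters made up 15.6% of all Sac3 clusters (Wilson interval 14.2 to 17.2%). They were short, so that they held only 72513 bp, or 5.40% of the DNA in Sac3 clusters and 0.601% of the chromosome spans. The span of a chromosome was taken to run up to the last base of any cluster, whichever of the 3 lists it came from. In the other direction, 533 of 2485 Thp1 clusters had no Sac3 cluster (21.4%, interval 19.9 to 23.1%). Of these, 208 lay on chromosome IV. Without that chromosome the share was 325 of 2009 (16.2%, interval 14.6 to 17.9%), against 17.6% of Sac3 clusters without Thp1.

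Sac3 clusters without Thp1 lay on all 16 chromosomes, at 29.6 per Mb over the genome. The highest densities were found on chromosome X, with 46.9 per Mb (35 clusters), chromosome V, with 45.1 per Mb (26 clusters), and chromosome II, with 44.3 per Mb (36 clusters). Chromosome VI followed with 40.8 per Mb (11 clusters) and chromosome III with 37.9 per Mb (12 clusters). Chromosome XII held the largest number, 38 clusters, at 35.2 per Mb. Between 26.1 and 32.0 per Mb were chromosomes I, VII, VIII, XI, XIII, XIV, XV and XVI. Chromosome IX had 8 clusters at 18.2 per Mb. Chromosome IV stood apart, with 5 clusters at 3.26 per Mb, although it is the longest chromosome on the array.

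**Figure D1:**
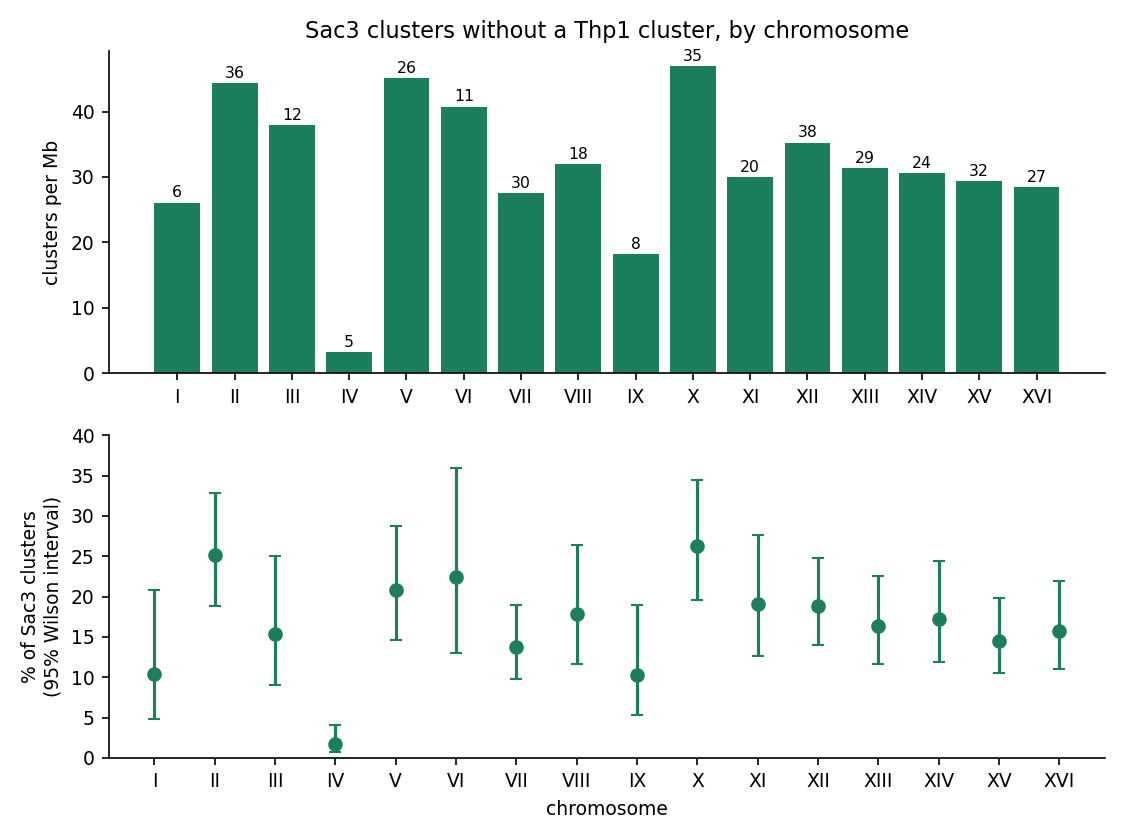
Sac3 clusters without a Thp1 cluster on the 16 chromosomes. Upper panel, bars give the clusters per Mb of chromosome span and the numbers printed over them the count of clusters. Lower panel, points give these clusters as a percentage of all Sac3 clusters on the chromosome, with 95% Wilson intervals. Chromosome IV lies at 1.76%, and its interval ends at 4.05%, below the lower bound of every other chromosome.

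As a share of the Sac3 clusters on each chromosome, those without Thp1 ranged from 10.3% on chromosomes I and IX to 26.3% on chromosome X, apart from chromosome IV. Chromosome X (35 of 133 Sac3 clusters, interval 19.6 to 34.4%) and chromosome II (36 of 143, 25.2%, interval 18.8 to 32.9%) had the largest shares. Most neighbors in this order overlapped in their intervals, which is why no order among the other 15 chromosomes is drawn. On chromosome IV 5 of 284 Sac3 clusters had no Thp1 cluster (1.76%, interval 0.754 to 4.05%). The Thp1 list was densest there, with 311 clusters per Mb against 156 to 274 on the other chromosomes. Over the 16 chromosomes, Thp1 clusters per Mb and Sac3 clusters without Thp1 per Mb had a Spearman correlation of -0.468. Without chromosome IV it was -0.354. The part of Thp1 density in the share was not tested. Without chromosome IV, 352 of 1998 Sac3 clusters had no Thp1 cluster (17.6%, interval 16.01 to 19.3%).

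The 5 clusters of chromosome IV lay in its left and middle part. They were found at chrIV:449680-449836 (157 bp), chrIV:654027-654162 (136 bp), chrIV:706227-706602 (376 bp), chrIV:768614-768742 (129 bp) and chrIV:808737-808858 (122 bp). Their distances to the nearest Thp1 cluster were 934, 2238, 499, 570 and 230 bp in this order. The first 3 lay wholly under an Rrm3 cluster of sac3Δ cells, and the last shared 1 bp with one.

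Sac3 clusters without Thp1 were the shorter ones by their median. They measured 100 to 1005 bp, with a median of 161 bp and quartiles of 127 and 229 bp. Sac3 clusters that shared DNA with Thp1 measured 100 to 18457 bp, with a median of 304 bp and quartiles of 201 and 584 bp. Of the clusters without Thp1, 153 of 357 (42.9%) were under 150 bp, close to the shortest run of 100 bp that the authors accepted, against 221 of 1925 (11.5%) of those with Thp1. At 300 bp or more, the stated resolution of the array, were 47 of 357 (13.2%, interval 10.05 to 17.1%), against 979 of 1925 (50.9%) with Thp1 and 45.0% of all Sac3 clusters. A longer cluster spans more DNA and meets a Thp1 cluster more easily, so that length and the choice of the clusters are not independent. Thp1 clusters without Sac3 were of a similar size, with a median of 165 bp and quartiles of 129 and 231 bp.

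**Figure D2:**
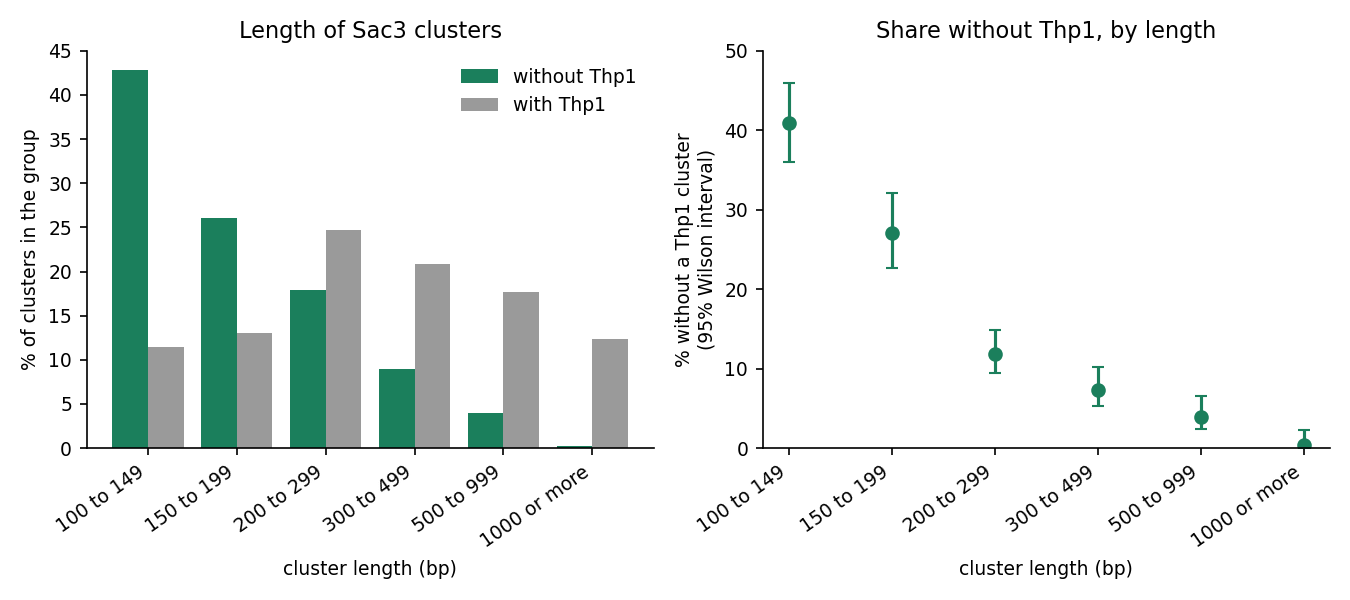
Length of Sac3 clusters in 6 classes of base pairs. Left panel, bars give the percentage of the clusters in each group, without Thp1 (green) and with Thp1 (gray), that fall in a class. Right panel, points give the percentage of the Sac3 clusters in a class that have no Thp1 cluster, with 95% Wilson intervals, which runs from 40.9% at 100 to 149 bp to 0.420% at 1000 bp or more.

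The share without Thp1 was lower in each longer class. It was 40.9% of Sac3 clusters of 100 to 149 bp (153 of 374), 27.1% of those of 150 to 199 bp (93 of 343) and 11.9% of those of 200 to 299 bp (64 of 539). Among clusters of 300 to 499 bp it was 7.37% (32 of 434), and among those of 500 to 999 bp 3.95% (14 of 354). Of the 238 Sac3 clusters of 1000 bp or more, only 1 had no Thp1 cluster (0.420%, interval 0.0742 to 2.34%). Long Sac3 clusters were thus nearly always shared with Thp1 in these lists.

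The single cluster over 1 kb lay at chrXV:1029975-1030979 and measured 1005 bp, 1529 bp away from Thp1. The next in length were chrXV:541265-542103 (839 bp), chrVI:268958-269744 (787 bp) and chrXIV:658518-659289 (772 bp). On chromosome XIII, chrXIII:123318-124068 (751 bp) and chrXIII:124867-125537 (671 bp) lay side by side under the same Rrm3 cluster of 3848 bp. The remaining 4 of the 10 longest were chrXI:163715-164303 (589 bp), chrII:8778-9320 (543 bp), chrXIV:656548-657084 (537 bp) and chrXIV:628435-628968 (534 bp). Of these 10 clusters 3 were on chromosome XIV, and 9 lay wholly under an Rrm3 cluster. Their distances to Thp1 ranged from 296 to 31327 bp.

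The distance to the nearest Thp1 cluster had a median of 1563 bp, with quartiles of 733 and 3642 bp and a range of 3 to 31327 bp. Only 6 of 357 clusters (1.68%) lay within 250 bp, the largest gap that the authors allowed inside a cluster, and 50 (14.0%) within 500 bp. Within 1 kb of a Thp1 cluster were 121 (33.9%, interval 29.2 to 39.0%), and 89 more lay between 1 and 2 kb. Another 99 were 2 to 5 kb away and 48 (13.4%) over 5 kb, of which 12 were over 10 kb. The nearest Thp1 cluster was on the right side for 169 (47.3%, interval 42.2 to 52.5%), an interval that includes 50%.

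**Figure D3:**
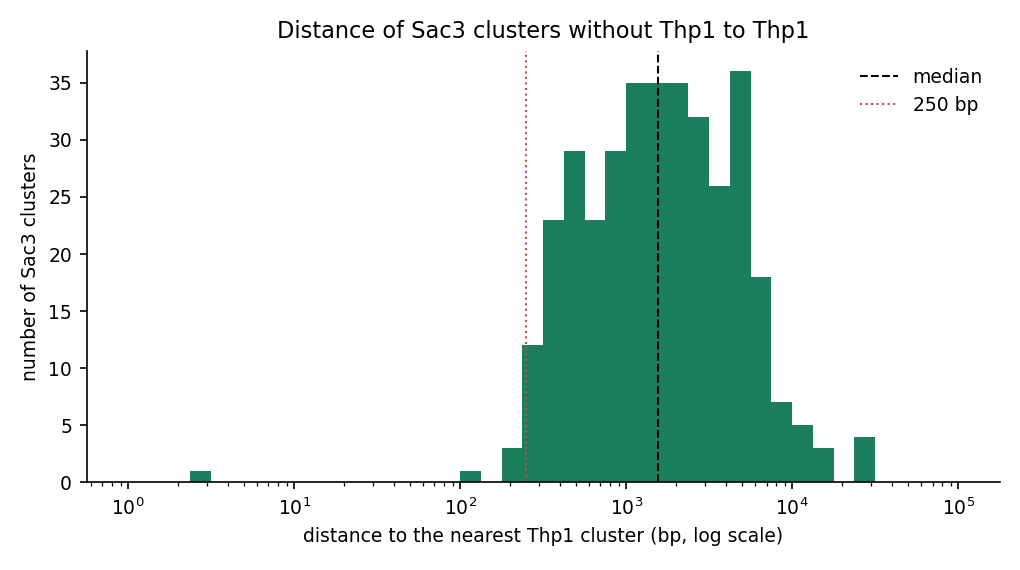
Distance of the 357 Sac3 clusters without Thp1 to the nearest Thp1 cluster. The x axis gives base pairs on a log scale and the y axis the number of clusters, with a dashed line at the median of 1563 bp and a dotted line at 250 bp. Only 6 clusters lie at or below 250 bp, and a group of 4 lies beyond 20000 bp.

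Just outside the limit, the nearest clusters were chrXV:515973-516214 at 3 bp from Thp1, chrXIV:772186-772545 at 107 bp and chrXVI:452967-453081 at 212 bp. They were followed by chrXIV:778262-778455 at 225 bp and chrIV:808737-808858 at 230 bp. Just inside it, the Sac3 clusters with the fewest bases in common with Thp1 were chrXV:411344-411711 with 20 bp, chrXIV:220951-221068 with 25 bp and chrVII:4904-5256 with 33 bp. Next came chrXII:867749-868305 with 41 bp and chrIX:366687-366825 with 42 bp. Outside the limit, only 1 of the 357 clusters thus lay within 100 bp of a Thp1 cluster.

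The 4 clusters farthest from Thp1 were all at the right end of chromosome VI. They were chrVI:264533-264655 (123 bp), chrVI:265010-265207 (198 bp), chrVI:268443-268630 (188 bp) and chrVI:268958-269744 (787 bp), at 26902, 27379, 30812 and 31327 bp from Thp1. The last Thp1 cluster of this chromosome ended at position 237630, and no Thp1 cluster followed in the remaining 32257 bp. These 4 were the only Sac3 clusters there. All of them were under Rrm3 clusters of sac3Δ cells, of 1077 bp for the first pair and 1605 bp for the second. Chromosome ends are here position 1 and the end of the span, as telomere positions are not in the lists. By this measure the cluster at chrVI:268958-269744 was also the only one of the 357 within 1 kb of a chromosome end, at 143 bp. The end of the span is there the right limit of the Rrm3 cluster over it.

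Farther inside the chromosomes, the clusters most distant from Thp1 were small. They were chrXVI:214031-214135 (105 bp, 16380 bp from Thp1), chrX:548060-548244 (185 bp, 15717 bp), chrIX:298286-298440 (155 bp, 13426 bp) and chrXI:502622-502721 (100 bp, 13066 bp). Also among the 10 farthest were chrXII:965132-965275 (144 bp, 11148 bp) and chrVII:751578-751787 (210 bp, 10740 bp). Each of these 6 lay wholly under an Rrm3 cluster, of between 309 and 990 bp.

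Near the chromosome ends, Sac3 clusters without Thp1 were few. Within 20 kb of an end lay 14 of the 357 (3.92%, interval 2.35 to 6.47%), against 137 of 1925 Sac3 clusters with Thp1 (7.12%, interval 6.05 to 8.35%) and 6.62% of all Sac3 clusters. These intervals overlapped, and 4 of the 14 were those of chromosome VI. Of the 31 Sac3 clusters within 1 kb of an end, 30 shared DNA with Thp1. From 20 kb inward, the share without Thp1 stayed between 14.3 and 18.6% in 4 ranges of distance to the end, with overlapping intervals. When each chromosome was divided into 10 equal parts from left to right, between 22 and 48 of the clusters fell in a part, and between 9.44 and 21.0% of its Sac3 clusters.

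**Figure D4:**
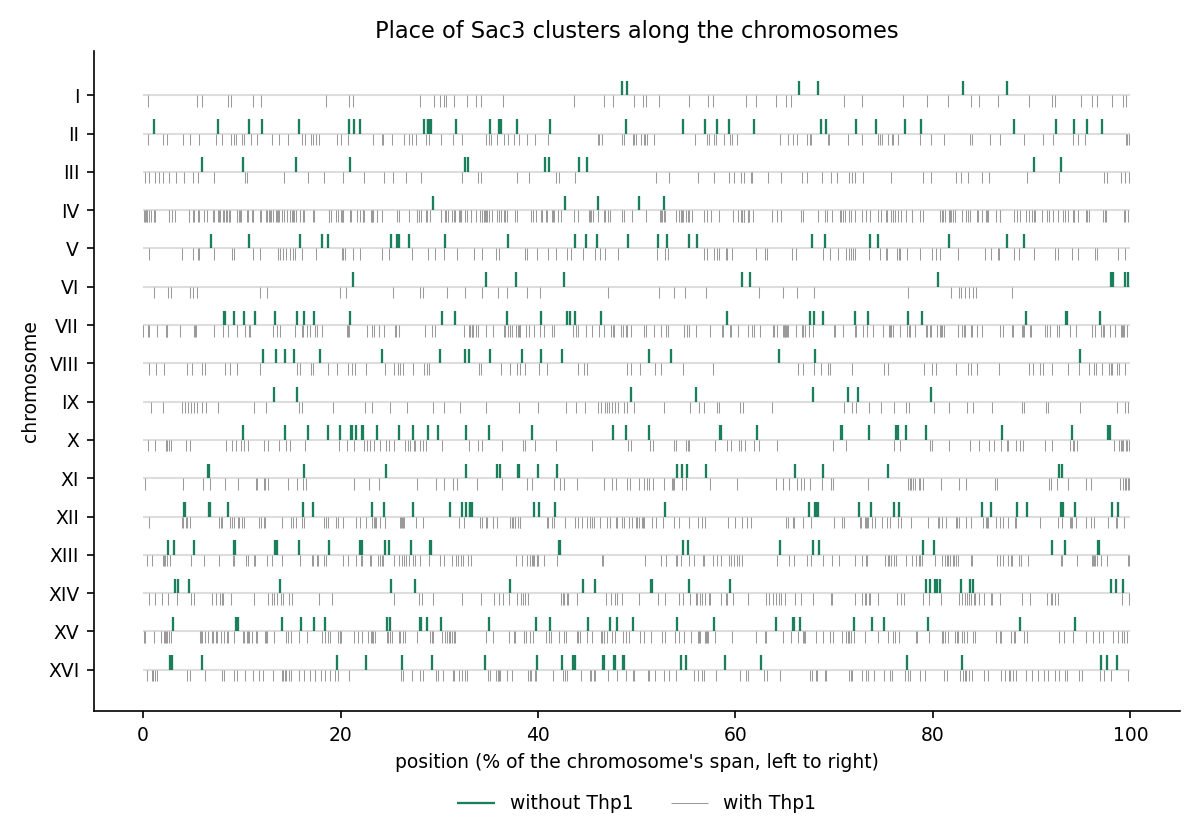
Place of Sac3 clusters along the 16 chromosomes, as a percentage of the span of each chromosome from left to right. Green ticks above the line are the 357 clusters without Thp1 and gray ticks below it the 1925 clusters with Thp1. Green ticks lie on all 16 chromosomes, with long stretches that hold none, such as chromosome III between 45.0 and 90.2% of its span. Chromosome IV has only 5.

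Most of the clusters stood alone in the Sac3 list. A run was defined as clusters without Thp1 that follow each other with no other Sac3 cluster between them. There were 201 clusters in no run, 60 pairs, 4 runs of 3 and 6 runs of 4. For 96 of the 357 (26.9%, interval 22.6 to 31.7%) the nearest Sac3 cluster also had no Thp1, whereas for the others it was shared with Thp1. Of all Sac3 clusters, 15.6% had no Thp1 cluster (interval 14.2 to 17.2%), and the difference was not tested. The nearest Sac3 cluster was at a median of 1199 bp, with a range of 251 to 16915 bp, where 251 bp is the smallest gap that the calling allows.

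The 6 runs of 4 were on chromosomes V, VI, VIII, XII and XIV. The longest in base pairs was chrVIII:68173-85790, whose clusters measured 106 to 318 bp and lay 1147 to 8456 bp from Thp1. In chrV:144606-155571 they measured 139 to 266 bp and lay 902 to 5490 bp from Thp1. Chromosome XII had a pair of such runs, chrXII:352976-358906 (117 to 207 bp) and chrXII:733576-736910 (159 to 270 bp). In chrXIV:625077-632404 they measured 101 to 534 bp, and the remaining run was that at the right end of chromosome VI. The clusters of a run thus covered a small part of it, for example 879 bp of 3335 bp in the second run of chromosome XII.

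Rrm3 in sac3Δ cells was a readout that the choice of the clusters did not use. An Rrm3 cluster lay over 353 of the 357 Sac3 clusters without Thp1 (98.9%, interval 97.2 to 99.6%), against 1922 of 1925 with Thp1 (99.8%, interval 99.5 to 99.9%). The background is high, as this was so for 99.7% of all Sac3 clusters and Rrm3 clusters covered 43.3% of the spans. The share thus lay near that of all Sac3 clusters. For Rrm3 clusters in sac3Δ cells the paper states a coverage of the genome below 43.3%, and the reason for the difference was not determined here. At least 50% of the length was under Rrm3 for 351 of 357 (98.3%), against 99.3% of all Sac3 clusters. The whole length was under Rrm3 for 337 of 357 (94.4%, interval 91.5 to 96.3%), against 1848 of 1925 with Thp1 (96.0%, interval 95.03 to 96.8%) and 95.7% of all Sac3 clusters. The Rrm3 list comes from cells without Sac3 and the Sac3 list from cells that have it, so that both proteins were not read in the same cells.

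The counterparts of these sites are Thp1 clusters without Sac3, which are of about the same length. An Rrm3 cluster lay over 98.9% of the Sac3 clusters without Thp1 (interval 97.2 to 99.6%), against 500 of 533 Thp1 clusters without Sac3 (93.8%, interval 91.4 to 95.6%). The whole length was under Rrm3 for 94.4% of the Sac3 clusters (interval 91.5 to 96.3%), against 84.8% of these Thp1 clusters (interval 81.5 to 87.6%). In both cases the intervals did not overlap. Without chromosome IV the values for Thp1 were 93.8 and 84.6%. With 1 list per protein this difference has no replicate check. No Rrm3 list of thp1Δ cells was analysed here.

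The 4 Sac3 clusters with neither a Thp1 nor an Rrm3 cluster were chrI:190691-191082 (392 bp), chrXII:570159-570357 (199 bp), chrXIII:740349-740514 (166 bp) and chrXIV:25480-25584 (105 bp). Their distances to the nearest Rrm3 cluster were 1181, 217, 806 and 1065 bp in this order. To Thp1 they were 1631, 2338, 949 and 1138 bp. They were thus apart from both other lists.

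Another 16 of the 357 were under Rrm3 in part (4.48%, interval 2.78 to 7.16%). This was near the 74 of 1925 with Thp1 (3.84%) and the 3.94% of all Sac3 clusters. The smallest parts were 0.820% of chrIV:808737-808858, 40.2% of chrIII:102947-103197 and 50.6% of chrVIII:75482-75799. The largest was 95.5% of chrXIV:656548-657084. Chromosome VII held 5 of the 16, and 30 of the 357. Some Sac3 clusters with Thp1 on this chromosome were also under Rrm3 only in part.

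Rrm3 clusters were longer than the site they lay over in 349 of 353 cases (98.9%) and shorter in the other 4. Over Sac3 clusters with Thp1 they were longer in 1904 of 1922 cases (99.1%), a similar share. Each of the 353 met a single Rrm3 cluster, as did 1915 of the 1922 with Thp1 (99.6%). Over the 353 sites the Rrm3 cluster had a median length of 1099 bp and quartiles of 628 and 1830 bp. Over Sac3 clusters with Thp1 the longest Rrm3 cluster had a median of 1268 bp and quartiles of 725 and 2182.5 bp. The Rrm3 cluster was a median of 5.87 times as long as the Sac3 cluster without Thp1, and 3.25 times as long as that with Thp1. Between clusters of 100 to 149 bp the medians of Rrm3 were alike, 866.5 bp without Thp1 and 867 bp with Thp1. They were 1163 bp without Thp1 and 822 bp with Thp1 for clusters of 150 to 199 bp, and 1444 bp without Thp1 and 1014 bp with Thp1 for 200 to 299 bp. In longer classes they were 1384 bp without Thp1 and 1186 bp with Thp1 (300 to 499 bp), and 1897.5 bp without Thp1 and 1748 bp with Thp1 (500 to 999 bp). At 1000 bp or more the order was the opposite, with 1478 bp over the single cluster without Thp1 and a median of 3207 bp with Thp1. These medians were not tested.

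**Figure D5:**
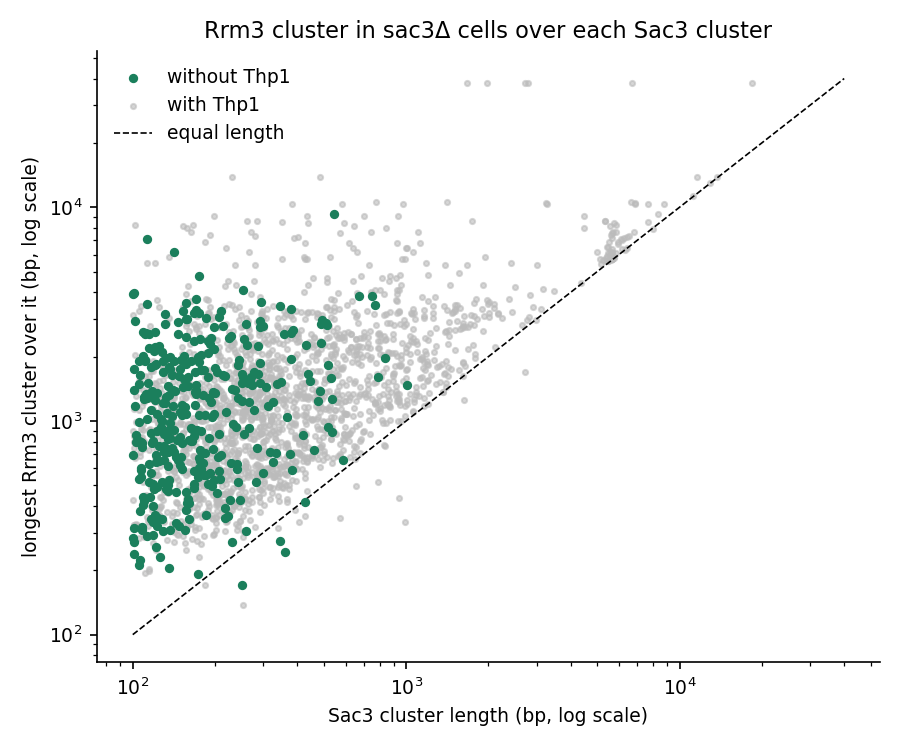
Length of the longest Rrm3 cluster of sac3Δ cells over each Sac3 cluster (y axis) against the length of the Sac3 cluster (x axis), both in base pairs on a log scale. Green points are the 353 clusters without Thp1 that have an Rrm3 cluster and gray points the 1922 with Thp1, and the dashed line marks equal length. Nearly all green points lie above the line, and they are at the short end of the x axis, up to 1005 bp.

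The 353 sites fell in 332 different Rrm3 clusters. In 257 cases (72.8%, interval 67.9 to 77.2%) that Rrm3 cluster touched no Thp1 cluster anywhere along its length, and in 96 it also held a Thp1 cluster away from the site. Over Sac3 clusters with Thp1, the Rrm3 cluster touched no Thp1 cluster in 2 of 1922 cases (0.104%). Both shares depend on the choice of the clusters by Thp1, so they are a description and not a result about Rrm3. No other Sac3 cluster was in the same Rrm3 cluster for 230 of 353 (65.2%, interval 60.05 to 69.9%), against 1341 of 1922 with Thp1 (69.8%, interval 67.7 to 71.8%). The center of the site lay in the central 50% of the Rrm3 cluster for 205 (58.1%, interval 52.9 to 63.1%), against 1321 with Thp1 (68.7%, interval 66.6 to 70.8%). These intervals did not overlap. A longer site has less room to lie off center, and the difference was not tested at equal length.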

How the data were processed

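The authors hybridized DNA immunoprecipitated with the anti-FLAG antibody M2 and amplified by random priming to Affymetrix tiling arrays. They computed signal and P-value per probe position with the Tiling Array Suite. They called a cluster where IP/SUP stayed positive at P below 0.01 over 100 bp or more, with gaps of up to 250 bp bridged. Deposited were cluster starts and ends in base pairs. The lists hold no other number per cluster, so depth is unknown and the number of arrays limits the precision. The title of the Rrm3 list names sac3, and this placed it with the sac3Δ samples, whose repetitions the authors quantile normalized.

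Starts were raised by 1 to count from 1. Overlap needed at least 1 bp. Distances, lengths, Wilson intervals and order-statistic intervals of medians were computed with Python 3.11.15, numpy 2.4.6, pandas 2.3.3 and scipy 1.17.1, and plots with matplotlib 3.10.9. The overlap code was tested on 20 pairs of simulated lists. Regions named were the 10 longest and 10 farthest from Thp1, all without Rrm3, 5 on each side of the limit, and the longest runs, of which all 6 tied ones are given in place of 3. The clusters of chromosome IV and those partly under Rrm3 were added after their values were seen. The members, rules and alternatives were chosen with earlier results of these data known. Genes and annotated features, which had been planned, were not analysed because the build is not given in the sources used here.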

Additional observations from a re-analysis of the deposited data

How the results depend on the processing

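Of 38 values recomputed for the number, share, median length, median distance and Rrm3 overlap, 26 stayed within the interval of the reported value (for numbers, within 1.5 times) and 12 moved. With clusters of at least 300 bp in every list, 209 Sac3 clusters had no Thp1 cluster (20.4%), with a median length of 379 bp and a median distance of 3417 bp. When only Sac3 clusters had to reach 300 bp, an alternative chosen after seeing the data, 47 were left (4.58%), with a median of 431 bp. The share thus lay above or below the reported 15.6% depending on whether short Thp1 clusters count. At more than 1 kb from Thp1 there were 236 (10.3%), with a median distance of 2709 bp. The share was 17.6% without chromosome IV, and 20.1% when at least 50% of a Sac3 cluster had to be under Thp1 to count as shared. Rrm3 overlap ran from 97.9 to 98.9%, too close to 100% for these alternatives to say much about its stability. No paired analysis was possible because each protein had a single list. Leaving out a repetition of Rrm3 was not possible either, as 1 list was used. Positions relative to annotated features were not run.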

Other observations

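Windows of 50 kb were counted on all chromosomes, including chromosome IV with its 5 clusters. Of 248 windows, 82 held no Sac3 cluster without Thp1 and 1 held 7, the highest number. That window was chrX:150001-200000, with 19 Sac3 and 16 Thp1 clusters in all, and its 7 clusters measured 131 to 259 bp and lay 338 to 2668 bp from Thp1. All 7 were wholly under Rrm3 clusters of sac3Δ cells. Windows with 6 were chrIII:100001-150000 and chrXIV:600001-650000. These windows were picked by their number and are given as values only.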
